A study of Mus musculus with 2 samples.

Results

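The 7 genes Procr, Fgd5, Ly6a, Ly6e, Cd27, Itga6 and Cd34 were chosen by name as markers used to sort mouse hematopoietic stem cells (HSCs), and all 7 of 7 were found among the 31053 genes of the expression matrix. The data are CITE-Seq of LSK cells (lineage-negative, Sca-1-positive, c-Kit-positive bone marrow cells), an assay that reads transcripts and antibody-derived tags in the same cell. One library was made from old C57BL/6JRj mice (22-28 months) and one from young mice of the same strain (3-5 months), with the cells of 4 mice per age group in each. Both were stained with tagged antibodies against CD150, CD48 and, through the dye PE, CLCA3A1. Each cell barcode ends in the suffix 1 or 2, and no label pairs a suffix with an age. Levels are therefore given per suffix, and values over both suffixes mix the libraries. Old and young cells are not compared, and no test across samples was possible with 1 library per age.

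LSK cells hold the stem cells and the multipotent progenitors that descend from them, and sorting panels split them by surface proteins. In the SLAM scheme, CD150 is high and CD48 low on long-term HSCs, and CD48 appears on progenitors. EPCR, the product of Procr, is an endothelial receptor for protein C that marks HSCs, Sca-1 is the product of Ly6a, and CD34 is low or absent on most adult mouse long-term HSCs and present on their progeny. Fgd5 belongs with these markers as a reporter gene and not as a surface protein, since its product is an exchange factor for small GTPases inside the cell. The cells had been sorted on Sca-1 protein, so cells without it were not collected, and Ly6a levels describe Sca-1-positive cells.

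Of 4688 barcodes, 4068 had under 10% mitochondrial unique molecular identifiers (UMIs, each standing for 1 captured transcript) and over 1500 genes, 1524 of suffix 1 and 2544 of suffix 2. They held 71367333 UMIs, with a median per cell of 15023.5 in suffix 1 and 14766.5 in suffix 2, and no barcode sequence occurred under both suffixes. Tag counts were present for 3986 of them. The tags of the suffixes stood apart: the 75th percentile of CD150 was 40 tags per cell in suffix 1 and 407 in suffix 2, and the 25th percentile of CD48 was 224 and 42. Gates were set at these percentiles within each suffix, which gave 555 CD150-high CD48-low cells (the SLAM gate; 172 of suffix 1 and 383 of suffix 2), 450 CD150-high CD48-high cells, 454 CD150-low CD48-low cells and 2527 CD150-low CD48-high cells. Markers of other cell types were near 0: the summed level of 3 B cell, 3 T cell or 4 granulocyte genes stayed at or under 12.7 CPM (counts per 1000000, the UMIs of the genes among all UMIs of a gate) in every gate and suffix, that of 3 stroma genes at or under 2.85 CPM and that of 3 erythroid genes at or under 33.7 CPM. Cd3e and Ly6g were at 0 in all gates. The 4 endothelial genes summed to 4.00 and 12.7 CPM in the SLAM gates against 2.37 to 2.61 CPM in the CD150-low CD48-high gates, and their part in the levels of Procr and Fgd5 was not tested. Scrublet called 37 cells doublets, and these were kept.

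Set against the CD150-low CD48-high cells, the SLAM gate was at least 1.5-fold higher within both suffixes for 4 of the 7 genes (Procr, Fgd5, Itga6 and Ly6a) and at least 1.5-fold lower for 2 (Cd34 and Cd27), while Ly6e passed neither rule. Among all 8995 genes with at least 10 CPM in either gate, 8.92% passed the first rule and 8.89% the second. Ranked by the log2 ratio of CPM (10 added, mean of the suffixes), Procr stood at place 45 from the top of the 8995 genes, Fgd5 at 93, Itga6 at 293 and Ly6a at 446. Cd34 stood at place 30 from the bottom and Cd27 at 447. Ly6e stood at place 3208 from the top with a log2 ratio of 0.08, where the median gene had -0.01 in suffix 1 and -0.06 in suffix 2. All intervals are 95% intervals for counting error only (exact Poisson for CPM, conditional binomial for ratios, Clopper-Pearson for shares) and do not cover differences between mice.

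**Figure D1:**
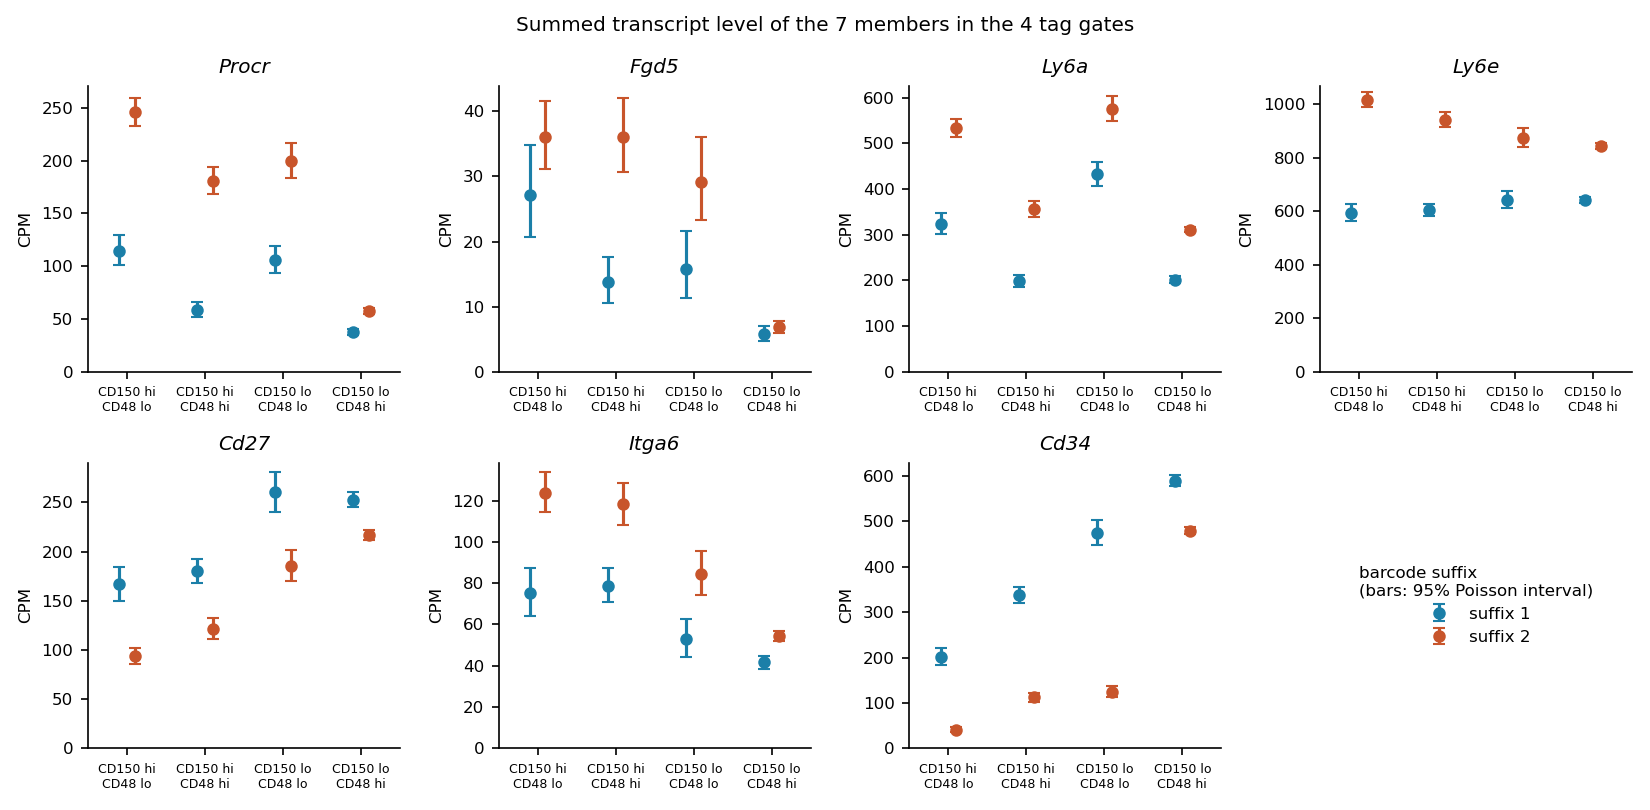
Level of each gene (CPM of summed UMIs, linear axes from 0) in the 4 tag gates, for suffix 1 (blue) and suffix 2 (orange), with 95% Poisson intervals as bars. Procr and Fgd5 stood highest in the SLAM gate or level with another gate, and Cd34 stood lowest there in both suffixes, from 202 CPM in suffix 1 and 40.3 CPM in suffix 2.

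Procr lies on chromosome 2 (155751117 to 155755471, plus strand, GRCm38). In suffix 1 its level was 115 CPM (101 to 129) in the SLAM gate, 106 in CD150-low CD48-low cells, 58.4 in CD150-high CD48-high cells and 37.7 in CD150-low CD48-high cells. Suffix 2 gave 246, 199, 181 and 57.5 CPM in the same order. The order of the 4 gates was thus the same in both suffixes, with the SLAM gate on top, but not every step exceeded counting error. In suffix 1 the SLAM and CD150-low CD48-low gates did not differ beyond it (ratio 1.08, 0.910 to 1.29). In suffix 2 the CD150-high CD48-high and CD150-low CD48-low gates did not (0.906, 0.813 to 1.01). Against CD150-low CD48-high cells the SLAM gate was 3.04-fold higher in suffix 1 (2.62 to 3.51) and 4.27-fold higher in suffix 2 (3.98 to 4.59).

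Fgd5 (chromosome 6, 91978878 to 92076004, plus strand) was the scarcest of the 7 transcripts. Its CPM in suffix 1 was 27.1 in the SLAM gate, 13.8 in CD150-high CD48-high cells, 15.8 in CD150-low CD48-low cells and 5.84 in CD150-low CD48-high cells. Suffix 2 gave 36.1, 36.0, 29.2 and 6.84 CPM. The fold between the SLAM and the CD150-low CD48-high gate was 4.64 (3.32 to 6.43) and 5.27 (4.31 to 6.45), with intervals that overlapped those of Procr. In suffix 2 the SLAM gate and the CD150-high CD48-high gate did not differ beyond counting error (36.1 and 36.0 CPM, interval of the ratio 0.808 to 1.24), whereas in suffix 1 they did (1.97, 1.36 to 2.84).

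Cd34 (chromosome 1, 194938819 to 194961279, plus strand), which encodes a sialomucin of progenitors, ran the other way. Its level rose from the SLAM gate through the CD150-high CD48-high and the CD150-low CD48-low gates to the CD150-low CD48-high gate, with 202, 338, 475 and 590 CPM in suffix 1 and 40.3, 112, 125 and 479 CPM in suffix 2. Each step had the same direction in both suffixes, although that between the intermediate gates was within counting error in suffix 2. The SLAM gate held 0.342 of the level of CD150-low CD48-high cells in suffix 1 (0.310 to 0.375) and 0.0840 in suffix 2 (0.0730 to 0.0962). Cd34 was also at least 1.5-fold lower in the SLAM gate than in either intermediate gate within both suffixes. That rule called 4% of 8880 genes against CD150-high CD48-high cells and 1.63% of 8791 genes against CD150-low CD48-low cells.

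Cd27 (chromosome 6, 125232622 to 125237010, minus strand) encodes a receptor of the tumor necrosis factor receptor family whose ligand is CD70. It was split by the CD150 tag: in suffix 1 the CD150-high gates had 166 CPM (SLAM) and 180 CPM, and the CD150-low gates 260 CPM (CD48-low) and 253 CPM. In suffix 2 the same gates had 93.6, 121, 185 and 216 CPM. Both CD150-low gates lay above both CD150-high gates in each suffix. Against CD150-low CD48-low cells, where Cd27 also passed the rule for lower genes, the ratio was 0.640 (0.563 to 0.728) and 0.506 (0.446 to 0.573). Against CD150-low CD48-high cells it was 0.659 (0.591 to 0.732) and 0.433 (0.394 to 0.474), and Cd27 no longer passed the rule there in 3 settings, which gave 0.620 (only cells with over 2500 genes and under 5% mitochondrial UMIs), 0.671 (gates at the 50th percentiles) and 0.551 (centred log ratio) over both suffixes. Cd70 itself was at or under 0.444 CPM in the SLAM and the CD150-low CD48-high gates of both suffixes.

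Itga6 (chromosome 2, 71745616 to 71858416, plus strand), the integrin subunit CD49f that pairs with Itgb1 or Itgb4 to bind laminin, was split by the CD150 tag in the opposite direction. Its level in suffix 1 was 75 CPM in the SLAM gate and 78.6 in CD150-high CD48-high cells against 53.0 and 41.6 in the CD48-low and CD48-high cells of low CD150. In suffix 2 the values were 124, 118, 84.4 and 54.4 CPM. The CD48 tag also mattered among CD150-low cells, where the CD48-low gate was higher by 1.27-fold (1.05 to 1.53) in suffix 1 and 1.55-fold (1.35 to 1.78) in suffix 2. The SLAM and CD150-high CD48-high gates did not differ beyond counting error in either suffix (ratios 0.954, 0.790 to 1.15, and 1.05, 0.933 to 1.18), and against CD150-low CD48-high cells the SLAM gate was 1.80-fold (1.52 to 2.13) and 2.28-fold (2.08 to 2.49) higher. Its partner Itgb1 was level between these gates, at 81.7 and 84.1 CPM in suffix 1 and at 83.2 and 79.0 CPM in suffix 2.

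Ly6a and Ly6e are neighbours on chromosome 15, Ly6e at 74955051 to 74959905 on the plus strand and Ly6a at 74994877 to 74998031 on the minus strand, with 34971 bases between them. Ly6a, the Sca-1 gene, was split by the CD48 tag. In suffix 1 it stood at 324 CPM in the SLAM gate and 432 CPM in CD150-low CD48-low cells, against 199 CPM in CD150-high CD48-high and 202 CPM in CD150-low CD48-high cells. In suffix 2 the corresponding levels were 534, 576, 355 and 311 CPM. The CD150-low CD48-low gate, and not the SLAM gate, held the most Ly6a in both suffixes (SLAM over CD150-low CD48-low 0.749, 0.681 to 0.823, and 0.926, 0.871 to 0.984). Ly6a was the only one of the 7 that was at least 1.5-fold higher in the SLAM gate than in CD150-high CD48-high cells within both suffixes (1.63 and 1.5), a rule that 0.664% of 8880 genes passed, and none of the 7 passed it against CD150-low CD48-low cells, where 1.79% of 8791 genes did.

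The Ly6a difference was the least firm of the 4 rises. It was 1.60-fold (1.48 to 1.74) in suffix 1 and 1.71-fold (1.64 to 1.79) in suffix 2, and it fell to 1.28 and 1.33 once cells with transcripts of at least 3 of 6 cycling genes were left out. With tags scaled within each cell (centred log ratio) it was 1.47 over both suffixes, and with the mean of per-cell CPM it was 1.57 and with that stricter cell filter 1.43. In these settings Ly6a was no longer 1.5-fold higher within both suffixes. Along the tags that mapped to no antibody, which carry no marker, Ly6a also fell, from 414 CPM in the lowest of 10 bins of cells to 149 CPM in the highest in suffix 1 and from 628 to 314 CPM in suffix 2. The part of tag yield per cell in the Ly6a difference was not tested beyond the scaled tags. Close relatives of Ly6a in the Ly6 cluster could share reads with it, so its level is uncertain to that extent, and how such reads were assigned was not tested.

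Ly6e encodes a separate protein of the family, TSA-1, although antibodies to Sca-1 are often named Ly-6A/E. Its levels were 595, 605, 644 and 642 CPM in suffix 1 and 1017, 942, 875 and 845 CPM in suffix 2 (SLAM, CD150-high CD48-high, CD150-low CD48-low, CD150-low CD48-high). The SLAM gate was lowest in suffix 1 (0.928 of the CD150-low CD48-high level, 0.876 to 0.982) and highest in suffix 2 (1.20, 1.17 to 1.24). Both departures were small beside those of the other 6 genes.

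Each suffix held its own level of these genes. In the SLAM gate suffix 2 exceeded suffix 1 by 2.14-fold for Procr (1.88 to 2.46), 1.71-fold for Ly6e, and 1.65-fold for Ly6a and Itga6, while its Cd27 was 0.562 (0.491 to 0.645) and its Cd34 0.200 (0.169 to 0.236) of that in suffix 1. Fgd5 did not differ there beyond counting error (1.33, 0.993 to 1.81). In CD150-low CD48-high cells the differences had the same direction and were smaller for 7 of the 7, at 1.52-fold for Procr and 0.812 for Cd34. The gates themselves were unlike: the SLAM cells had a median of 189.5 CD150 and 111 CD48 tags in suffix 1 and of 775 and 20 in suffix 2, and with 1 threshold for both suffixes 33 cells of suffix 1 were in the gate. The suffix stands for 1 library, and its gate, its age, its mice and its handling cannot be told apart.

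RefSeq promoters were matched for 4 of the 7 genes, and they belong to the pair with the largest rise (Procr and Fgd5) and the pair that was lower in the SLAM gate (Cd27 and Cd34). The 150 bases just before the earlier of the RefSeq and GENCODE starts are shown for each (GRCm38.p6), as the sequence next to which these opposite levels arise. They were searched on both strands for GAGGAA, a core sequence of PU.1 and other ETS factors, for AGATAA, a core of the factor family of Gata2, and for TGTGGT, a core of RUNX factors, and matches are in capitals. These are factors of blood cells in general.
Procr, chr2:155750967-155751116, plus strand: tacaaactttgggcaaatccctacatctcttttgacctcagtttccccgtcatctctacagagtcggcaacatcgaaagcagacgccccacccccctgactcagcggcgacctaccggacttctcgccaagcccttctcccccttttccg
Fgd5, chr6:91978728-91978877, plus strand: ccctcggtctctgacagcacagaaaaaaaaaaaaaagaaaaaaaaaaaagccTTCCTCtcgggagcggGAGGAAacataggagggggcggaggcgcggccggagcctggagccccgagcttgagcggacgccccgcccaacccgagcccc
Cd27, chr6:125237028-125237177, minus strand: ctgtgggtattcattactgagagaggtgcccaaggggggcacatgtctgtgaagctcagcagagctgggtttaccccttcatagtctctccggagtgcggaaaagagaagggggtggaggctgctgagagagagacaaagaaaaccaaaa
Cd34, chr1:194938669-194938818, plus strand: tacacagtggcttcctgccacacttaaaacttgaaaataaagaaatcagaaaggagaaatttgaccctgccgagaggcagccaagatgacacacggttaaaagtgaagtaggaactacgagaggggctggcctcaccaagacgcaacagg
Only the Fgd5 window held a match, 2 of GAGGAA, on opposite strands at bases 53 to 58 and 69 to 74 of the window. Of 32851 RefSeq promoter windows of the same length, 14.5% held GAGGAA, 5.65% AGATAA and 8.40% TGTGGT. A match is a string of letters and not a bound site.

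Within each suffix the cells were also ordered by each tag and divided into 10 equal bins, which needs no threshold. Along the CD150 tag of suffix 2, Procr rose from 53.2 CPM in the lowest bin to 228 CPM in the highest, Fgd5 from 6.04 to 41.6 and Itga6 from 45.1 to 128, while Cd34 fell from 547 to 71.7 CPM and Cd27 from 224 to 87.9 CPM. The first 4 bins changed little for all 5 genes, and the steps came where the median tag passed from 12 to 408 tags per cell (bins 5 to 8). In suffix 1, Procr went from 38.3 to 101 CPM and Cd34 from 652 to 172 CPM, with Cd34 still at 456 CPM in bin 8, where the median tag was 41.

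Along the CD48 tag the same genes ran in the opposite direction. Procr fell from 130 to 14.8 CPM in suffix 1 and from 259 to 19.3 CPM in suffix 2, and Fgd5 from 26 to 3.82 and from 40.1 to 2.16 CPM. The top CD48 bins held the lowest Procr and Fgd5 levels of any bin of CD150 or CD48. Ly6a fell from 353 to 145 and from 577 to 196 CPM along CD48, but along CD150 it ended close to where it began in suffix 1 (257 and 265 CPM). Ly6e stayed between 580 and 687 CPM along CD48 in suffix 1 and between 767 and 1043 CPM in suffix 2.

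**Figure D2:**
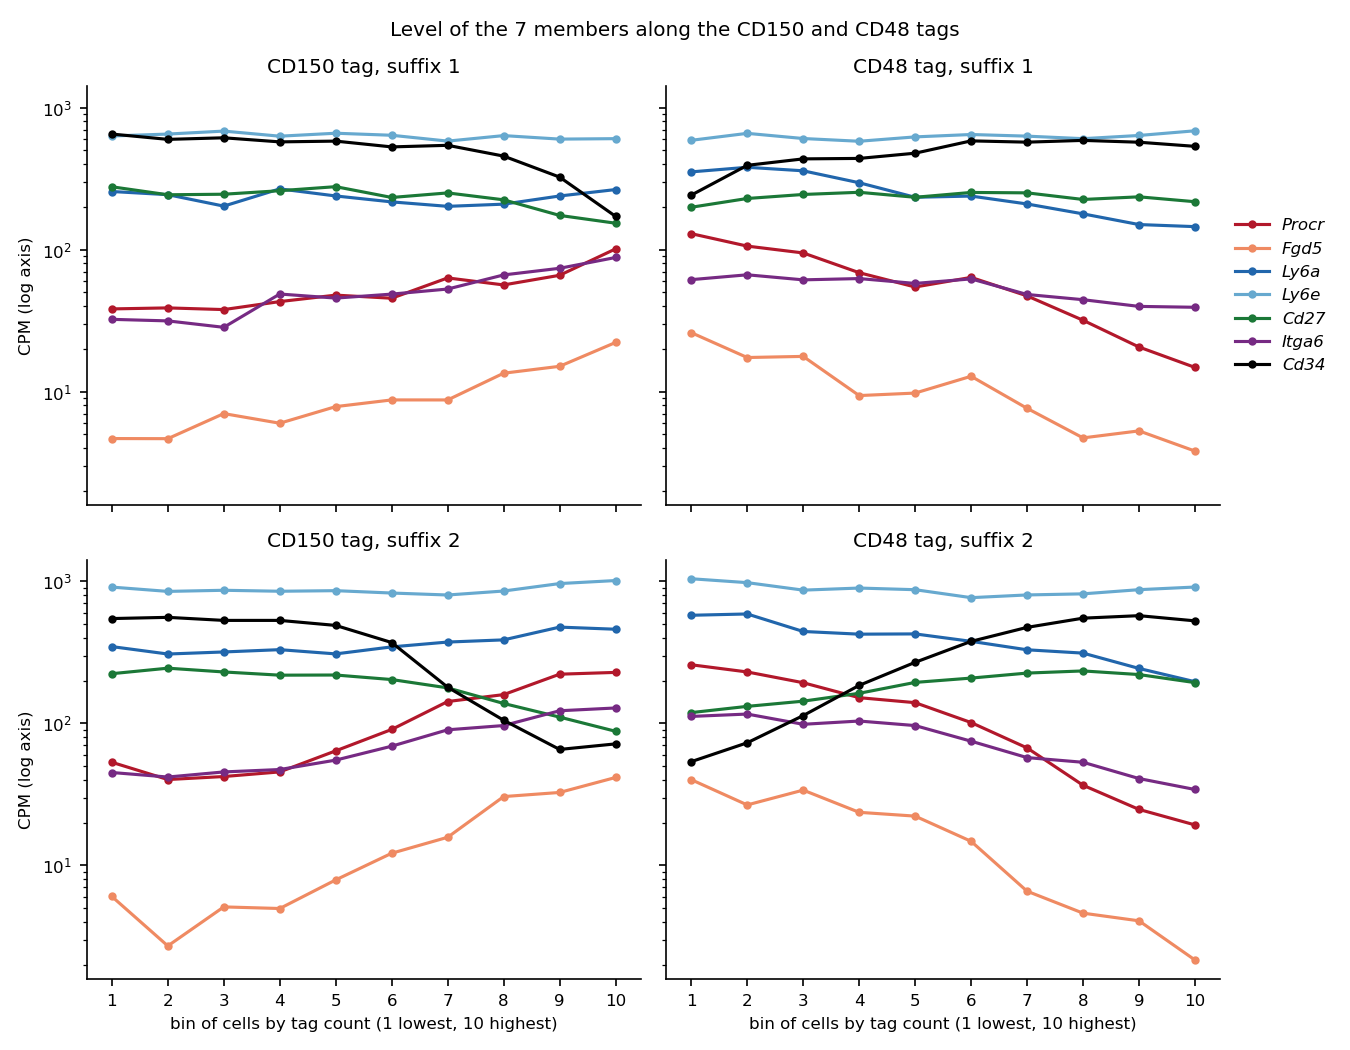
Level of the 7 genes (CPM, log axis) in 10 equal bins of cells ordered by the CD150 tag (left) or the CD48 tag (right), for suffix 1 (top) and suffix 2 (bottom). In suffix 2 the Cd34 line crosses those of Procr, Itga6 and Cd27 along CD150, falling from 547 to 71.7 CPM, and Ly6e stays close to flat.

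Levels of a sum do not say how many cells carry a transcript, so each cell was thinned to 9000 UMIs and cells with fewer (243 of 4068, among them 36 SLAM, 6 CD150-high CD48-high, 82 CD150-low CD48-low and 92 CD150-low CD48-high cells) were left out. After thinning, Procr was found in 77.1% of SLAM cells (57.1% in suffix 1, 85.7% in suffix 2) and in 34.1% of CD150-low CD48-high cells (25.7% and 38.9%), and without thinning in 66.3% and 92.7% of SLAM cells of suffix 1 and suffix 2. In lymphoid-primed cells, taken as CD150-low CD48-high cells with a Dntt UMI (1022 thinned cells, median 20103 UMIs before thinning against 13334 in the SLAM gate), it was 19.8%. That share is the level that free RNA or low expression gave in these cells, and every tag gate lay above it.

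After thinning, Fgd5 was found in 19.2% and 26.2% of SLAM cells (suffix 1 and suffix 2) and in 5.12% and 6.17% of CD150-low CD48-high cells, against 2.85% and 1.70% of the Dntt-positive cells. Unthinned, the SLAM shares were 27.9% in suffix 1 and 38.1% in suffix 2. Most SLAM cells thus had no Fgd5 UMI at this depth, which does not show that they lack the transcript. Itga6 was found in 51.3% and 63.6% of SLAM cells and in 30.9% and 38.6% of CD150-low CD48-high cells, with 26.4% and 28.5% in the Dntt-positive cells. Its unthinned SLAM shares were 61.0% and 74.9% by suffix.

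In the SLAM gate, Cd34 detection differed most between the suffixes. After thinning it was found in 70.5% of SLAM cells of suffix 1 (62.7 to 77.5) and in 27.0% of those of suffix 2 (22.5 to 31.9), against 99.0% and 92.5% of CD150-low CD48-high cells. The unthinned SLAM shares were 76.7% and 38.6%. The Dntt-positive cells express Cd34 (99.6% with a UMI) and are no reference for its free RNA. No cell type that should lack Cd34 was numerous enough to set its background: of 12 immunoglobulin-rich cells, 8.33% had a Cd34 UMI after thinning (0.211 to 38.5) and 25% without (5.49 to 57.2), at 38.4 CPM. The share that free RNA gives was therefore not measured for Cd34. Among the SLAM cells of suffix 2 only 0.551% had 3 or more Cd34 UMIs, against 26.9% in suffix 1.

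Cd27 was found in 58.4% of SLAM cells (71.8% and 52.6% by suffix) and 85.2% of CD150-low CD48-high cells, close to the Dntt-positive cells (85.5%), and its unthinned SLAM shares were 79.1% and 63.4%. Ly6a was found in 88.2% of SLAM and 79.2% of CD150-low CD48-high cells, close to the 77.9% of Dntt-positive cells, so that its detection separated the gates little (86.0% and 96.6% of SLAM cells by suffix without thinning). Ly6e was found in 99.0% and 99.6% of the same gates. For Ly6a the difference lay in the number of transcripts: 65.3% of SLAM cells of suffix 2 had 3 or more UMIs at 9000 UMIs per cell, against 45.1% of CD150-low CD48-high cells, and in suffix 1 40.4% against 29.8%. Ly6a also had the highest variance over mean of the 7 genes between the cells of every gate and suffix, from 2.62 to 4.85, where that of Itga6 was 0.956 to 1.22 and that of Fgd5 0.991 to 1.40. A value near 1 is what counting alone gives.

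**Figure D3:**
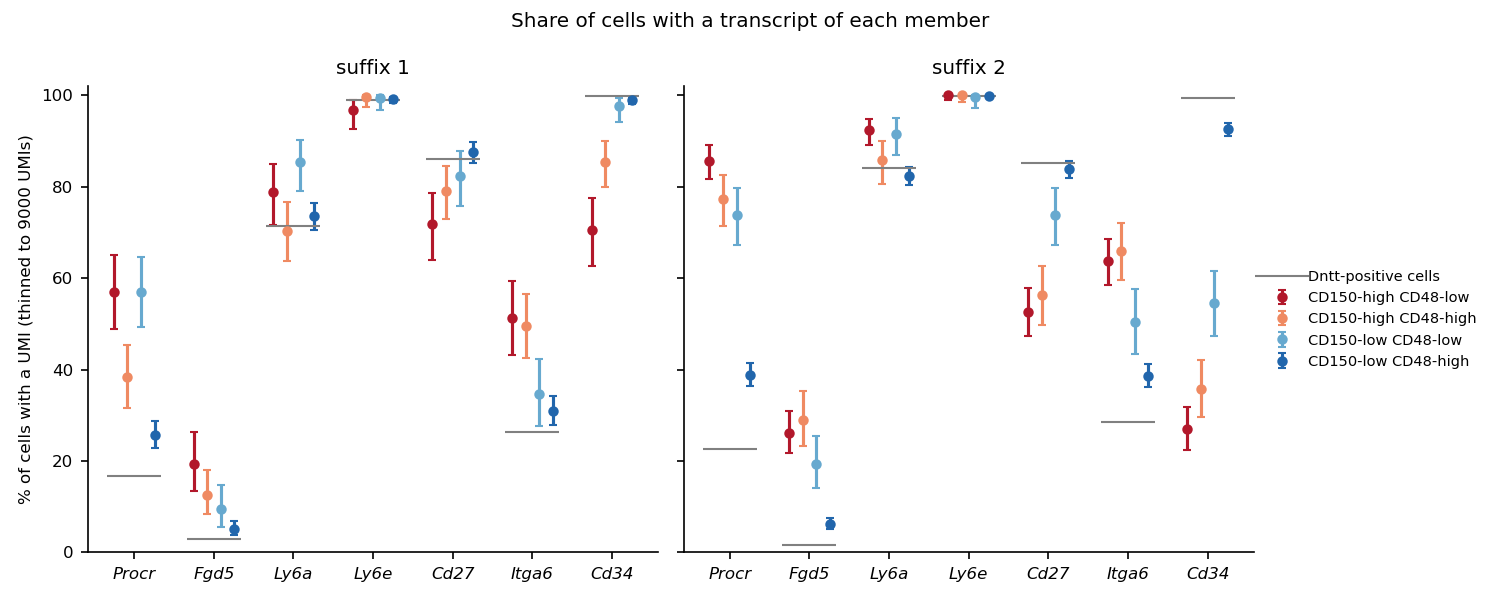
Share of cells (%) with at least 1 UMI of each gene after thinning to 9000 UMIs, by tag gate (colours) and suffix (panels), with 95% Clopper-Pearson intervals, and the share in Dntt-positive cells as grey dashes. Cd34 in the SLAM gate stands at 70.5% in suffix 1 and 27.0% in suffix 2, and Ly6e is near 100% in every gate.

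Joint detection in single thinned cells was then examined for the 21 pairs of genes, as the share of cells with both over the product of the separate shares. Over all cells, Procr and Fgd5 were found together 1.43 times (suffix 1) and 1.45 times (suffix 2) as often as the product, and Fgd5 was found in 16.5% of Procr-positive cells (14.8 to 18.3) against 6.20% of Procr-negative cells (5.20 to 7.33). Fgd5 and Cd34 were found together least, at 0.912 and 0.667 of the product, and Procr and Cd34 at 0.963 and 0.834. Every pair with Ly6e lay at or above 0.993 and at most 1.0, as nearly all cells had a Ly6e UMI. Cells with all 7 genes made up 1.25% (48 of 3825). Over both suffixes the median was 4 genes per cell, 4 in CD150-low CD48-high cells and 5 in each of the other 3 gates. In suffix 1 it was also 4 in the SLAM and the CD150-high CD48-high gate, so the gates differed little.

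Inside single gates of a suffix, the intervals of the Cd34 shares with and without Procr stood apart in 1 of 8 cases. Asking that such intervals do not overlap is stricter than an interval of the difference, which was not computed, so overlap does not show equal shares. Over all cells, Cd34 was found in 69.6% of Procr-positive cells (67.4 to 71.7) and 91.2% of Procr-negative cells (89.9 to 92.4), a ratio of 0.763. That ratio was 0.944 in suffix 1 and 0.702 in suffix 2. Inside the SLAM gate of suffix 2, Cd34 was found in 27.3% of the 311 Procr-positive cells (22.5 to 32.6) and 25% of the 52 Procr-negative cells (14 to 38.9), so no separation was detectable at this number of cells. In the SLAM gate of suffix 1 the shares were 66.3% of 89 cells and 76.1% of 67 cells, with overlapping intervals. The contrast was largest within a gate and suffix among CD150-low CD48-low cells of suffix 2, at 50.3% and 66.0%, again with overlapping intervals. In CD150-low CD48-high cells of suffix 2, at 88.9% (86.1 to 91.3) and 94.8% (93.2 to 96.2), it was small but the intervals did not overlap.

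Procr and Fgd5 were found together at or above the product in 8 of 8 gates by suffix (1.01 to 1.58). The intervals of the Fgd5 shares with and without Procr stood apart in 1 of them, by the same strict rule. Among CD150-low CD48-high cells, Fgd5 was found in 9.75% of Procr-positive cells (7.51 to 12.4) and 3.89% of Procr-negative cells (2.75 to 5.32) of suffix 2, 1.58 times the product. In suffix 1 the shares in that gate were 6.64% (3.76 to 10.7) and 4.59% (3.12 to 6.49), with overlapping intervals. In the SLAM gate the shares were 24.7% and 11.9% in suffix 1 and 26.4% and 25% in suffix 2, with overlapping intervals in both. Cd27 and Cd34, both lower in the SLAM gate, were found together more often than the product in the CD150-high CD48-high gate of suffix 2 (1.23 times): Cd34 was in 44.0% of the Cd27-positive (35.5 to 52.9) and 25% of the Cd27-negative cells (17.0 to 34.4).

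**Figure D4:**
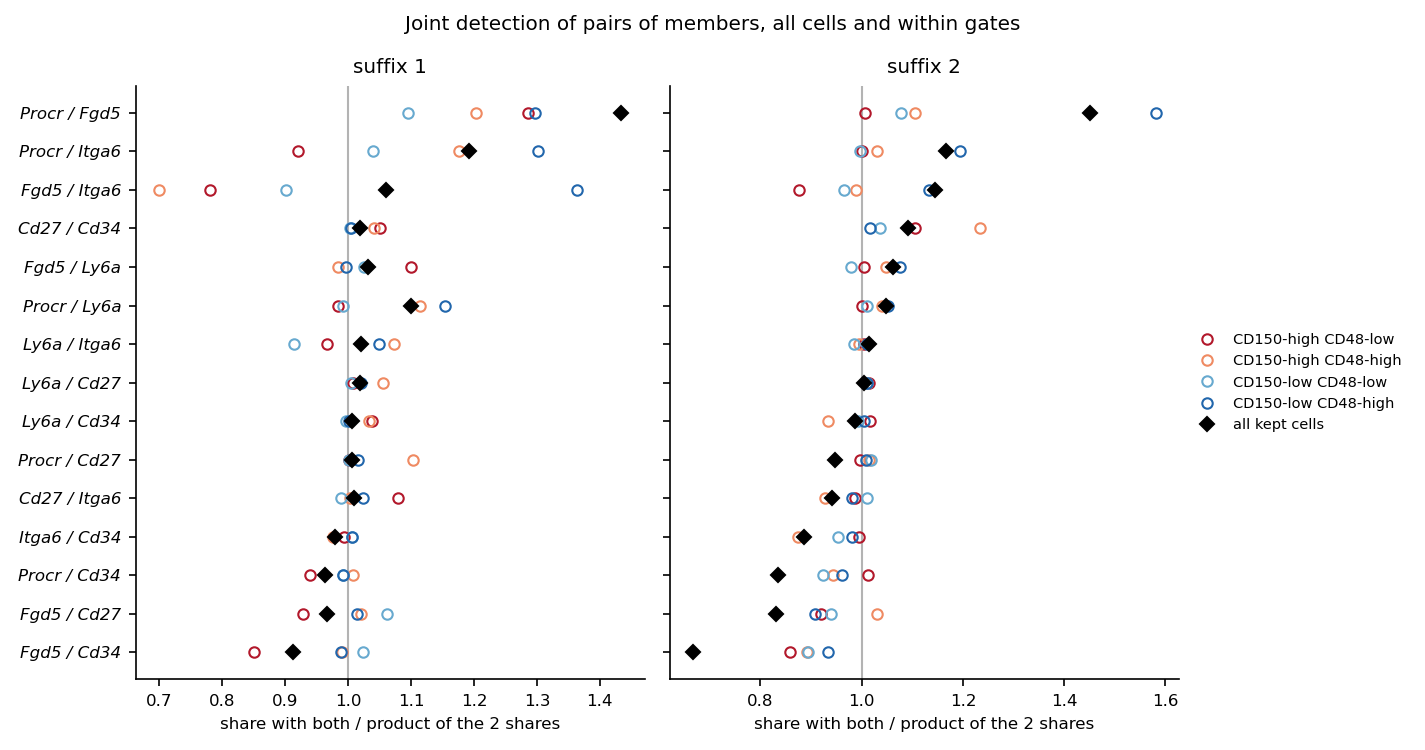
Share of thinned cells with both genes over the product of the separate shares, for the 15 pairs without Ly6e, in all cells (black diamonds) and within each tag gate (open circles), by suffix. In suffix 2 the Procr and Cd34 diamond lies at 0.834 and its SLAM gate circle at 1.01, and the Procr and Fgd5 diamond lies at 1.45.

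Read in the other direction, transcripts picked out tag-defined SLAM cells to different degrees. Of thinned cells with tags, 13.8% were in the SLAM gate. Of cells without a Cd34 UMI the share was 43.5% (39.8 to 47.2), and of cells with one it was 6.81% (5.94 to 7.76). Fgd5-positive cells followed with 30.0% (25.7 to 34.7), Cd27-negative cells with 26.8%, Procr-positive cells with 23.0% and Itga6-positive cells with 19.4%. Absence of Cd34 thus enriched for the gate more than presence of any of the other 6 genes, and the same held within suffix 1 (51.7%) and suffix 2 (42.3%).

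Combining both, 537 cells had a Procr UMI and no Cd34 UMI, 48 of suffix 1 and 489 of suffix 2, and 47.7% of them were in the SLAM gate (43.4 to 52.0). The gate thresholds set this share, which was 9.5% with gates at the 90th and 10th percentiles and 91.8% at the 50th. The share was 62.5% in suffix 1 (47.4 to 76.0) and 46.2% in suffix 2 (41.7 to 50.7). Of cells with both transcripts 12.0% were in the gate, of cells with Cd34 alone 3.46%, and of the 178 cells with neither 30.9% (24.2 to 38.2). The SLAM share was thus higher with Procr than without it among Cd34-negative cells in both suffixes. The intervals stood apart in suffix 2 (28.5% without, 21.1 to 36.8) and overlapped in suffix 1 (39.0% of 41 cells without).

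The Procr-positive Cd34-negative cells also differed in readouts that did not define them. Their median CD150 tag was 657 per cell, against 12 in cells with both transcripts and 6 in cells with Cd34 alone, and their median CD48 tag was 36 against 191 and 588 (143 against 310 and 639 in suffix 1, 34 against 120 and 535 in suffix 2). Flt3, a receptor of multipotent progenitors, was found in 5.77% of them (12.5% in suffix 1, 5.11% in suffix 2), 45.0% of cells with both (57.8% and 37.5%) and 63.3% of cells with Cd34 alone (71.0% and 56.4%). Transcripts of at least 3 of the 6 cycling genes, counted without thinning at median depths of 13256, 14042 and 18045.5 UMIs, were found in 1.30% (4.17% and 1.02%), 13.8% (14.7% and 13.3%) and 36.2% (32.1% and 39.9%). Cells with neither transcript were unlike them in this last respect (22.5% with 3 cycling genes) although their median CD150 tag was 398.5. The part of depth in the cycling shares was not tested. Suffix 2 supplied 489 of the 537 cells, so the medians over both are mainly those of suffix 2. In suffix 1 the median CD150 tag of the 48 cells was 460.5.

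**Figure D5:**
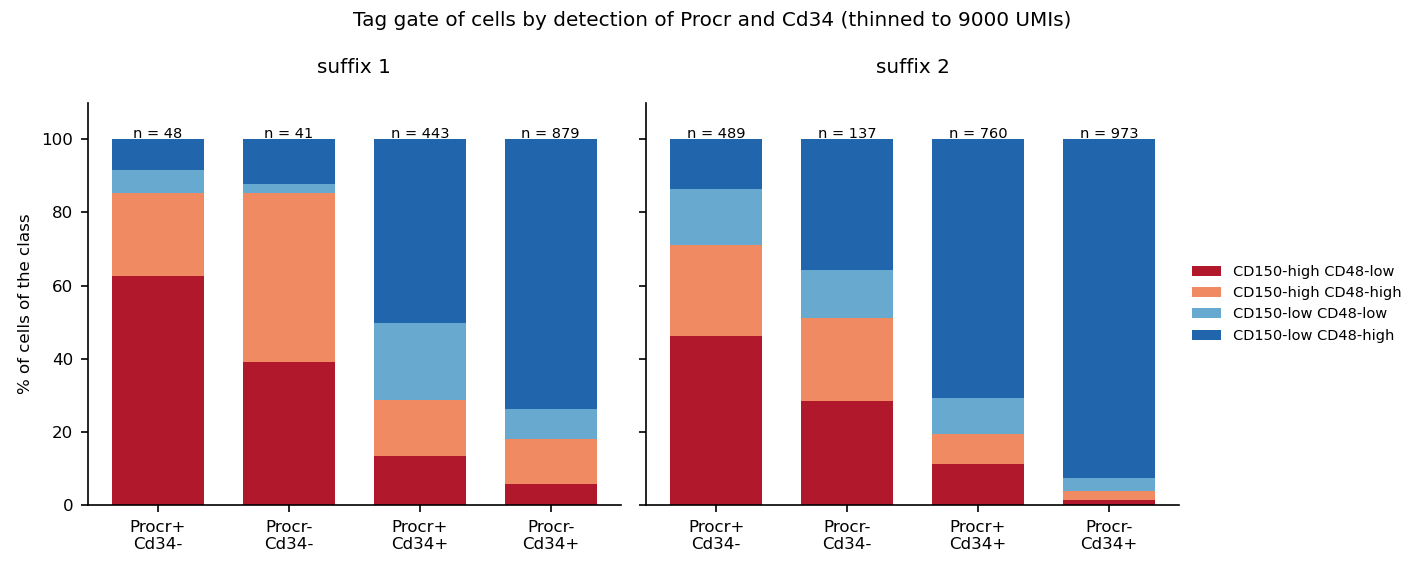
Share (%) of thinned cells in each tag gate, for the 4 combinations of a Procr UMI and a Cd34 UMI, by suffix, with the number of cells above each bar. The SLAM gate (dark red) takes 62.5% and 46.2% of Procr-positive Cd34-negative cells and 5.80% and 1.34% of cells with Cd34 alone.

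Cycling cells were unevenly spread over the gates (in suffix 1 5.81% of SLAM, 36.8% of CD150-high CD48-high, 4.90% of CD150-low CD48-low and 29.6% of CD150-low CD48-high cells, and in suffix 2 0.261%, 11.2%, 2.40% and 30.5%), so the 7 genes were also compared between cycling and other cells inside a gate. Among CD150-low CD48-high cells, Procr in cycling cells was 0.456 of the level in other cells in suffix 1 (0.381 to 0.543) and 0.299 in suffix 2 (0.265 to 0.337). Fgd5 was 0.524 and 0.302, Ly6a 0.471 and 0.487, and Itga6 0.743 and 0.632. Cd27 was 0.803 and 0.804, Cd34 0.877 and 1.09, and Ly6e 1.01 and 1.10. These are shares of all UMIs, and cycling cells, which were called without thinning, held more UMIs (median 28646.5 against 14316.5 in suffix 1, 26901.5 against 14220 in suffix 2). Per cell, Procr had 0.648 UMIs in cycling and 0.763 in other cells of suffix 1 and 0.695 and 1.27 in suffix 2, and Ly6a 3.56 and 4.05, and 5.47 and 6.16. For Cd34 the other gates differed: in CD150-high CD48-high cells cycling cells had 0.985 of the level of other cells in suffix 1 (0.891 to 1.09) and 3.20 times that level in suffix 2 (2.67 to 3.83, from 27 cycling cells), at 252 against 78.8 CPM. Without cycling cells, the ratio of the SLAM to the CD150-low CD48-high gate was 2.41 and 2.96 for Procr (suffix 1 and suffix 2), 3.88 and 3.56 for Fgd5, 1.58 and 1.90 for Itga6, 0.603 and 0.396 for Cd27, and 0.314 and 0.0870 for Cd34.

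Other lists gave the surroundings of these genes. Of 15 other HSC surface marker genes that could be compared, 11 were at least 1.5-fold higher in the SLAM gate than in CD150-low CD48-high cells within both suffixes and 0 lower (median log2 ratio 0.90). Slamf1, the gene of the gated CD150, went from 0.397 to 16.9 CPM in suffix 1 and from 2.53 to 64.2 CPM in suffix 2. The adhesion molecules Jam3 and Esam rose from 4.71 to 23.5 CPM and from 19.9 to 88.4 CPM in suffix 1. Of 7 HSC reporter genes 6 were higher and 0 lower (median 1.5), with Pdzk1ip1 from 32.0 to 214 and from 45.1 to 346 CPM, Vwf from 1.19 to 28.9 and from 4.18 to 131 CPM, and Mecom and Hoxb5 among them. On the same scale the log2 ratio was 1.65 for Procr, 1.34 for Fgd5, 0.89 for Itga6 and 0.71 for Ly6a.

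Of 7 progenitor surface marker genes, 6 were lower and 0 higher (median log2 ratio -2.23). Flt3 went from 255 CPM in CD150-low CD48-high cells to 13.3 in the SLAM gate of suffix 1 and from 145 to 2.09 CPM in suffix 2, Cd48, the gene of the other gated protein, from 97.7 to 0.888 and from 134 to 1.52 CPM, and Cd53 from 113 to 19.1 and from 145 to 19.9 CPM. Cd34 (log2 ratio -2.39) and Cd27 (-0.85) had the direction of this list. The 3 other Ly6 genes with enough counts included 2 that were lower, Ly6c2 (695 UMIs in 57 of the 4068 cells) and Ly6d (566 UMIs in 24 cells), so these calls rest on few cells. None of 5 partner genes of the 7 passed either rule (Cd164, Traf5, Traf2 and F2r had the largest ratios in either direction), and Kit, on whose protein the cells had been sorted, did not either (172 and 126 CPM in suffix 1, 119 and 128 CPM in suffix 2, SLAM gate first). All 6 cycling genes were lower.

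Over the 8 sums of 4 gates in 2 suffixes, the genes whose log2 level (10 CPM added) was most like that of each marker were named among 7398 genes with at least 20 CPM in at least 1 sum. They were Socs1, Mrpl52 and Tmem176b for Procr (Pearson's r 0.992 for the first), Tmem246, Ndn and Mecom for Fgd5 (0.994), Cd55 and Fkbp11 for Itga6 (0.991), Runx2, Prkcd and Sox4 for Cd27 (0.994) and Arhgap30, Gmfg and Tmsb10 for Cd34 (0.997). Ly6a (Gm16141, Il2rg and Itm2b, 0.964 for the first) and Ly6e (Tmsb4x, Bmpr1a and Prtn3, 0.978) had looser neighbours. Among the 7 themselves, Procr was most like Fgd5 (0.945) and Cd34 most like Cd27 (0.928), and Itga6 ran against Cd27 (-0.945). The 8 sums come from 2 libraries and share their gates, so these values are descriptions.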

How the data were processed

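Transcripts and tags of sorted LSK cells were measured in 1 old and 1 young library. The authors made the deposited UMI counts per gene and cell with Cell Ranger 3.1.0 (per the labels and the study's methods; builds mm10 and GRCm38), and its aggregation step evened the depth of the libraries, so their original depth is not known here. The deposited tag values are log10 tag counts from CITE-seq-Count, which were turned back into counts; a count of 0 was placed below all others. The 7 genes and all lists were chosen with earlier results of these data known.

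Cells were filtered, gated and summed as described with the results, in Python 3.11.15 with numpy 2.4.6, scipy 1.17.1 and scanpy 1.11.5 (scrublet, expected doublet rate 0.06, per suffix). Levels are CPM over the summed UMIs of a gate. For shares, each cell was thinned without replacement to 9000 UMIs with a fixed seed, which also ordered cells with tied tags in the bins. Genes named are the 7, at most 4 per list by absolute log2 ratio, and for each of the 7 the 3 genes most alike over the sums; Itgb1 and Cd70 were named outside this rule, after their values were seen, and a few genes that the rule names are not reported here. The rule for 1.5-fold differences was run on simulated counts with known changes and counting error only, which checks its calculation and not the results given here. No test across samples was run, and PCR and capture make the intervals cover counting error only. Gene positions are from GENCODE vM21 and promoters from RefSeq. The 9 interferon-stimulated genes, the alternative with 1 tag threshold for both suffixes and that without cycling cells were chosen after seeing the data. The alternatives were other cell filters, gate thresholds, tag scales, normalizations, doublet rules, depths and either suffix alone.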

Additional observations from a re-analysis of the deposited data

How the results depend on the processing

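The 4 genes higher in the SLAM gate than in CD150-low CD48-high cells stayed at 3 or 4 under the 13 alternatives, and Procr, Fgd5 and Itga6 were among them each time. Either suffix alone, 2 of the 13, could not lose a called gene, since the rule already asked for both suffixes. Ly6a was lost with over 2500 genes and under 5% mitochondrial UMIs, with the centred log ratio of the tags, with the mean of per-cell CPM and without cycling cells. The 2 lower genes became 1 (Cd34, without Cd27) with the strict cell filter, with gates at the 50th percentiles and with the centred log ratio. Ly6e turned to 0.992 with the strict cell filter and to 0.928 in suffix 1 alone, from 1.16. With the strict filter the ratio of the SLAM to the CD150-low CD48-high gate went from 4.10 to 8.22 for Procr, from 5.15 to 12.4 for Fgd5, from 2.20 to 4.21 for Itga6 and from 0.171 to 0.335 for Cd34, and Cd34 had 0.282 with gates at the 50th percentiles and 0.0964 with 1 threshold for both suffixes. The strict filter left 372 of 4068 cells, and 20 SLAM cells of suffix 1.

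The ratio of Cd34 detection in Procr-positive to that in Procr-negative cells (0.763) became 0.898 with the strict filter, 0.835 without thinning, 0.687 at 5000 UMIs per cell, 0.944 in suffix 1 alone and 0.702 in suffix 2 alone. The SLAM gate share of Procr-positive Cd34-negative cells (47.7%) was 91.8% with gates at the 50th percentiles, 9.5% at the 90th and 10th, 65.4% with the centred log ratio, 64.4% with 1 threshold for both suffixes (chosen after seeing the data; 33 SLAM cells of suffix 1 and 614 of suffix 2), 80.0% with the strict filter (15 cells), 40.4% at 5000 UMIs per cell and 62.5% in suffix 1 alone. No paired analysis was possible because each age is 1 library and no test was run. Depth limits Fgd5 most: it had 61 UMIs in the SLAM gate of suffix 1.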

Other observations

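Ly6a and Ly6e, whose gate patterns differed, went together from cell to cell. Cells with 10 or more Ly6a UMIs after thinning (191 of 3825, 4.99%) held 1329 CPM of Ly6e, against 677 CPM in the 707 cells without a Ly6a UMI (1108 against 582 CPM in suffix 1, 1372 against 775 CPM in suffix 2). The order held inside the SLAM gate of suffix 2, where Ly6e rose from 773 CPM without Ly6a over 873 CPM (1 or 2 Ly6a UMIs) and 1005 CPM (3 to 9) to 1498 CPM (10 or more). Procr lay between 227 and 253 CPM over these 4 classes, but in other gates of suffix 2 it was lowest without a Ly6a UMI. In CD150-high CD48-high cells it was 107 CPM without, 208 CPM with 3 to 9 and 196 CPM with 10 or more (143 to 262). In CD150-low CD48-high cells it was 40.5 CPM without and 99.7 CPM with 10 or more. Cells with at least 3 cycling genes became fewer, from 26.5% without to 3.64% with 3 to 9 in the former gate and from 49.5% without to 15.7% with 10 or more in the latter. Their part in the Procr levels was not tested. In the SLAM gate of suffix 1 the same classes held 460, 521, 719 and 1234 CPM of Ly6e, the last from 6 cells. Of the 191 cells, 7 were immunoglobulin-rich, and 6.81% had transcripts of at least 3 cycling genes against 43.0% of those without Ly6a. The summed level of 9 interferon-stimulated genes (Isg15, Ifit1, Ifit3, Irf7, Bst2, Ifi27, Oasl2, Rtp4 and Usp18), chosen after these values had been seen and so no independent evidence, also moved with the classes, from 436 CPM without a Ly6a UMI to 1998 CPM with 10 or more in the SLAM gate of suffix 1 and from 567 to 1292 CPM in that of suffix 2. The part of any of these in the Ly6e levels was not tested.

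The CLCA3A1 tag, which was not used for gating, ran with the same genes. From its lowest to its highest bin of 10 in suffix 2, Procr went from 33.9 to 197 CPM, Fgd5 from 3.28 to 36.5 CPM, Itga6 from 39.8 to 131 CPM and Cd34 from 524 to 81.6 CPM. In suffix 1, where the median of the highest bin was 90 tags per cell against 359 in suffix 2, Procr went from 24.8 to 87.4 CPM and Cd34 from 590 to 262 CPM. The CLCA3A1 tag was also higher in both CD150-high gates (medians 25 and 26 per cell against 5 and 7 in the CD150-low gates of suffix 1, and 214 and 257 against 43 and 12 in suffix 2, CD48-low gate first), so the bins of one tag are in part those of the other.

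The 12 immunoglobulin-rich cells (over 10% of UMIs) held 1650 CPM of Ly6a, more than any gate, with 16.8 CPM of Procr, 9.59 CPM of Cd27 and 38.4 CPM of Cd34.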
